A study of Notophthalmus viridescens with 18 samples.

Results

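Serum-treated newt myotubes (MT_10%) were compared with proliferating mononucleate cells (PRO), both in 10% fetal calf serum (FCS) when they were collected, to find what still separated the 2 states. The comparison took in 6 of the 18 libraries of the series, 3 PRO and 3 MT_10%, chosen by their labels alone. All cells were wild-type A1, a myogenic line from limb mesenchyme of the newt Notophthalmus viridescens. PRO cells received DMSO vehicle in 10% FCS, were subcultured during growth and were collected on day 12. MT_10% cells spent 5 days in 0.25% FCS, in which A1 cells fuse into multinucleate myotubes, and then 3 days in 10% FCS, and were collected on day 8. The myotubes, but not the PRO cells, were purified by size: aggregates were removed on a 100 µm filter, and a finer filter (30 µm in the labels) held the myotubes back. RNA came from RNeasy micro kits for myotubes and mini kits for PRO cells, so that filter, kit, day and vehicle cannot be told apart from cell state. Values of the 3 libraries of myotubes kept in 0.25% FCS throughout (MT_0.25%) are given beside some results as a reference, without a test. A single line was used, and no source used here says whether replicates were separate cultures, so that p-values measure the spread between these libraries, which may be technical.

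Myotubes are formed when myoblasts leave the cell cycle and fuse under control of the myogenic regulatory factors, of which Myf5 marks committed precursors and myogenin (Myog) the onset of terminal differentiation. Differentiated myotubes then build sarcomeres, the actin and myosin arrays of contraction, and the membrane systems that couple a nerve signal to calcium release. Mammalian myotubes are held out of the cell cycle, whereas newt myotubes in culture can re-enter S phase when serum is added.

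Each library was represented by a count per transcript, the number of reads that the program Sailfish assigned to each of 27395 assembled entries, called transcripts here. Counts summed to 37724999 to 44402210 in PRO and 20609794 to 62991760 in MT_10%. The 500 transcripts with the most counts held 69.3 to 71.5% of the PRO counts and 56.98 to 61.0% of the MT_10% counts, and the TMM scaling factors were 0.617 to 0.710 in PRO and 1.13 to 1.26 in MT_10%. CPM below is the count divided by the TMM-scaled library size and multiplied by 1000000, fold changes are MT_10% over PRO on the log2 scale from edgeR with their standard errors (SE), and a transcript is called at an adjusted p under 0.05 over all 23107 transcripts tested. Pearson correlations of log2(CPM + 1) were 0.982 to 0.995 within the 2 groups and 0.908 to 0.930 between them. Marker transcripts were then set beside the labels. The 8 entries of the 7 myotube markers summed to 57.6 to 74.4 CPM in PRO and 2313 to 2730.0 in MT_10%, with all 8 called higher (26.8% of all tested were). The study listed the desmin, titin and troponin entries as higher in senescent cells or MT_0.25% than in these PRO libraries. The other myotube markers come from its differentiation panel, drawn from the same samples. Their direction is therefore not an independent check of the labels. The 6 mitotic markers summed to 440.0 to 584 CPM in PRO, 291 to 326 in MT_10% and 37.7 to 85.6 in MT_0.25%. Of these 6, 3 were called lower in MT_10% than in PRO and 0 higher, beside 24.2% lower and 26.8% higher among all tested. The 3 called, Ccnb1, Ccnb2 and Ccnb3, had log2 fold changes above 0 on log2(TPM + 0.1), as given below.

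To give a measure of PRO transcripts in MT_10%, 13 transcripts outside the proliferation panel were taken that had at least 1 CPM in PRO and at least 50 times the MT_0.25% level. Their median level was 8.70%, 2.82% and 8.79% of the PRO mean in the 3 MT_10% libraries (6.77% ± 3.42, SD, n = 3) and 0.801% ± 0.343 in MT_0.25%, which the choice itself kept low. MT_10% library 2 held the lowest share and the other two lay close together. Single markers ranged from 0 counts in MT_10% (comp3717547_c0_seq1) to 47.3% of the PRO level (comp4486285_c0_seq1), with comp38901_c0_seq1 at 1.84%, Timp1.1, the one with a name, at 12.5% and comp2946897_c0_seq1 at 19.1%. The part of remaining mononucleate cells in the results below was not tested, and in bulk RNA fewer cells of a type and less RNA per cell cannot be told apart.

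Of 23107 transcripts tested, 11784 were called (51.0%), of which 6185 were higher (26.8% of those tested) and 5599 were lower (24.2%) in MT_10%. The 3 and 3 libraries did not overlap in 11135 of the called transcripts (94.5%). A difference of more than 2-fold, tested against that size with edgeR's glmTreat, was found for 3285 transcripts (14.2%), 1884 higher and 1401 lower. In contrast, the 95% interval of the fold change lay within 2-fold in either direction for 5354 transcripts, 590 of them called. The balance of directions depended on the scaling. The median log2 fold change of all tested transcripts was 0.15 with TMM, 0.05 with RLE and 1.03 on log2(TPM + 0.1), which has no such factor, and the share of called transcripts that were higher in MT_10% was 52.5%, 46.6% and 93.7%. In 4 equal bins of transcript length, from short to long, the median was 0.10, 0.14, 0.04 and 0.31.

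**Figure D1:**
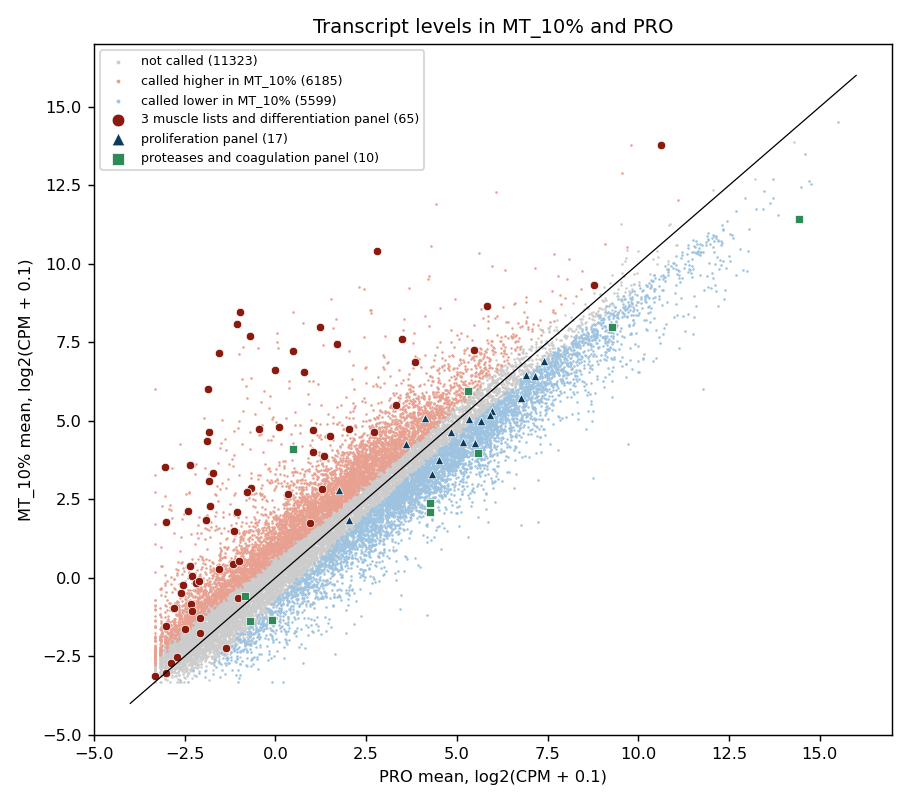
Mean level of each of the 23107 tested transcripts in PRO (horizontal) and MT_10% (vertical), both as log2(CPM + 0.1), with equal levels on the line. The 6185 transcripts called higher in MT_10% and the 5599 called lower are coloured, and most of the 65 members of the differentiation, sarcomere, calcium and junction lists lie above the line, while the proliferation panel (17) lies near it.

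Names come from the study's supplementary lists and were joined to the counts by the values beside them. A transcript has a name only where it is in 1 of the 11 panels of the study or was higher in senescent cells or MT_0.25% than in PRO, so that 694 of the transcripts called higher but only 43 of those called lower have an informative name. Altogether 209 transcripts were joined to the 11 panels and to 6 lists of muscle and related genes, and 193 of them passed the expression filter. The members of the 6 lists were picked by the study as higher in senescent cells or MT_0.25% than in the same PRO libraries, and the panels were drawn from the same samples, so that their direction is not independent evidence. The counts of members called in each list below stand beside 26.8% called higher and 24.2% called lower among all tested.

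The muscle differentiation programme stood far above the level of proliferating cells after 3 days in serum. Of 21 transcripts in the differentiation panel, 17 were tested and the other 4 had too few counts. Of the 17, 15 were called higher and 0 lower (88.2%, beside 26.8% called higher among all tested), with a median log2 fold change of 3.05 beside 0.15 over all transcripts, or 3.15 without MHC-1, which had 3 counts or fewer in each group. Myogenin, comp799573_c0_seq1, the transcription factor of terminal differentiation, was at 47.9, 64.0 and 59.8 CPM in PRO and 378, 435 and 387 in MT_10%, a log2 fold change of 2.81 (adjusted p = 5.85e-09, SE 0.24). Muscle creatine kinase Ckma, comp17_c0_seq1, which buffers ATP in contracting cells, had 0.605, 1.07 and 0.989 CPM in PRO and 94.9, 104 and 96.0 in MT_10%. Its log2 fold change was 6.80 (adjusted p = 6.91e-13, SE 0.32), and MT_0.25% stood lower, at 55.7, 43.6 and 55.5 CPM. Most of the panel went the other way, with the MT_10% mean above that of MT_0.25% for 5 of the 17. The median level of the panel was 996% of PRO in MT_10% and 1584% in MT_0.25%. The heavy chains of myosin, the motor of the sarcomere, were scarcely detected in PRO. Embryonic-type myosin Myh3.1 had 0.191, 0.301 and 0.239 CPM in PRO and 95.1, 177 and 159 in MT_10%, and its log2 fold change was 9.21 (adjusted p = 5.27e-13, SE 0.42). For slow myosin Symhc1.1 the levels were 0.0637, 0.129 and 0.341 and 57.3, 68.6 and 68.2, a log2 fold change of 8.48 (adjusted p = 1.58e-13, SE 0.35). None of these 4 overlapped between groups, as was so for 94.5% of all called transcripts.

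Apart from Myh3.2, the other myosins called ranged from log2 fold changes of 1.88 for Mhc-2 (adjusted p = 0.000790) to 6.84 for Myh3.3 (adjusted p = 3.41e-13), and the unconventional myosins Myo10 and Myo18b were at 2.63 (SE 0.30) and 2.18 (SE 0.23). Myh3.2 had 2 counts over the PRO libraries and 8.16, 10.3 and 15.7 CPM in MT_10%, a ratio of 492 with an exact 95% interval from 136 to 4066 that covers counting error only. The call of Smyhc1.2, at 3.26 (adjusted p = 0.00998, SE 1.00), was lost without PRO library 1 (adjusted p = 0.0524), and MHC-1 and Myo7a were not called, at under 1 CPM in every PRO and MT_10% library. Myf5, comp460329_c0_seq1, the factor of committed myoblasts, showed the smallest difference of the 15. It was at 458, 569.6 and 289 CPM in PRO and 580.0, 645 and 701 in MT_10%, the lowest MT_10% library standing just above the highest PRO one, and at 168, 166 and 195 in MT_0.25%. Its log2 fold change over PRO was 0.55 (adjusted p = 0.0358, SE 0.21), and the call was lost without PRO library 1, PRO library 3, MT_10% library 2 or MT_10% library 3 (adjusted p = 0.0603 to 0.205), and also, by adjusted p, with RLE (0.0810), DESeq2 (0.0598), only these 2 groups fitted (0.0764) and the replicate number as a block (0.0524).

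**Figure D2:**
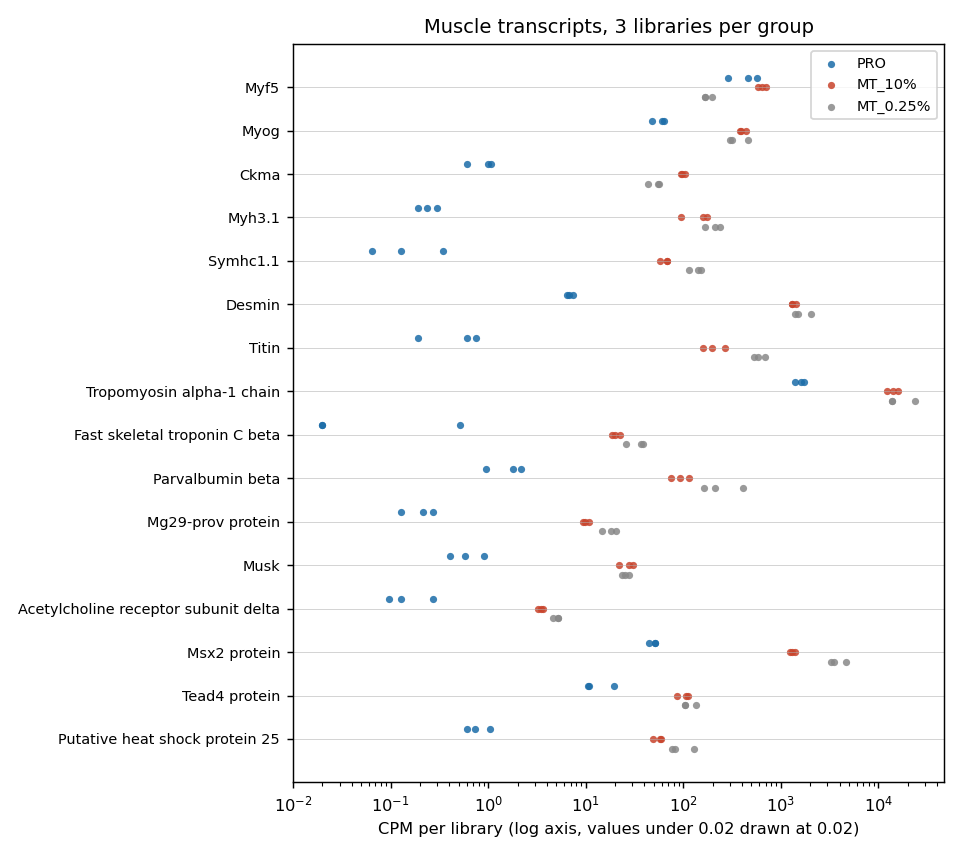
CPM of 16 muscle transcripts in each library of PRO, MT_10% and MT_0.25% on a log axis, 1 point per library, with the lowest values drawn at the left mark. Apart from Myf5, MT_10% points lie well to the right of PRO points, as for Myog (378, 435 and 387 against 47.9, 64.0 and 59.8 CPM).

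Sarcomere and muscle cytoskeleton transcripts made up the largest list, and most of it was higher in MT_10%. Of 27 tested, 21 were called higher, 0 lower and 6 were not called, 19 were higher by more than 2-fold under glmTreat (26.8% of all tested were called higher and 14.2% were past 2-fold in either direction), and the median log2 fold change was 3.08. Summed over the list, levels were 1439 to 1794 CPM in PRO, 15122 to 18487 in MT_10% and 18234 to 30140.4 in MT_0.25%. Tropomyosin alpha-1 chain, comp18_c0_seq1, which winds along the thin filament, was the most abundant member, at 1618, 1745 and 1389.6 CPM in PRO and 15824, 14070.4 and 12206 in MT_10%. This single transcript made up most of the list's sum in every library. Its log2 fold change was 3.15 (adjusted p = 2.79e-08, SE 0.30). Desmin, comp1273_c0_seq2, the intermediate filament that ties myofibrils together, was at 6.79, 6.36 and 7.43 CPM in PRO and 1296, 1433 and 1307 in MT_10%, a log2 fold change of 7.61 (adjusted p = 3.79e-14, SE 0.29), and a second desmin entry was at 6.84 (adjusted p = 1.09e-10, SE 0.44). A fragment of titin, comp121524_c0_seq1, the elastic filament that spans from Z-disc to M-line, had 0.191, 0.602 and 0.750 CPM in PRO and 160.1, 198 and 269 in MT_10%. MT_0.25% held 583, 536 and 684 CPM of it, above every MT_10% library. The transcript named putative myosin light chain kinase 3, comp2823_c0_seq1, had 0.223, 0.387 and 0.614 CPM in PRO and 336, 323 and 406 in MT_10%, with a log2 fold change of 9.76 (adjusted p = 1.22e-14, SE 0.33).

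The troponins, which make contraction depend on calcium, differed among themselves. Troponin C of slow and cardiac muscle was at 2.20, 1.80 and 1.88 CPM in PRO and 20.5, 29.3 and 27.9 in MT_10% (log2 fold change 3.72, SE 0.24), and fast troponin I was at 4.11, 3.74 and 4.09 and 27.2, 26.5 and 26.6 (log2 fold change 2.75, SE 0.22). Fast skeletal troponin C beta was at 0, 0 and 0.511 CPM in PRO, with its counts in 1 library, and at 19.9, 22.4 and 18.7 in MT_10%. SMYD1, a methyltransferase needed for myofibril assembly, was at 2.29, 2.96 and 2.97 and 23.5, 24.5 and 20.7 CPM (log2 fold change 3.07, SE 0.26, adjusted p = 5.46e-09). At the small end stood titin-cap, a Z-disc partner of titin, with 1.40, 1.85 and 2.22 CPM in PRO, 1.89, 4.21 and 3.74 in MT_10% and 34.3, 21.8 and 20.5 in MT_0.25%. Its log2 fold change of 0.88 (adjusted p = 0.0147, SE 0.29) lost the call without PRO library 1, MT_10% library 2 or MT_10% library 3 (adjusted p = 0.0516 to 0.0959). The 6 transcripts not called were entries named DMD protein, M-protein, cardiac myosin binding protein C, talin-2, PDZ and LIM domain protein 3 and a leucine-rich repeat protein, all at under 1 CPM in each of the 6 libraries.

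Transcripts of calcium handling and of the neuromuscular junction showed the same direction. In the calcium list 12 of 13 tested were called higher and 0 lower, with a median log2 fold change of 3.11, and 10 were called higher with limma on log2(TPM + 1). Parvalbumin beta, comp98_c0_seq1, a calcium buffer of fast muscle, was at 0.956, 1.80 and 2.15 CPM in PRO and 116, 92.9 and 75.4 in MT_10% (log2 fold change 5.86, adjusted p = 2.96e-10, SE 0.40), while MT_0.25% held 413, 209 and 164. The ryanodine receptors, which release calcium from the sarcoplasmic reticulum, had log2 fold changes from 1.60 (SE 0.21) for receptor 3 to 4.79 (SE 0.49) for a fragment of receptor 2. Skeletal receptor 1b was at 6.56, 7.30 and 5.49 CPM in PRO and 22.5, 24.1 and 28.2 in MT_10%, short of the 63.9, 58.0 and 72.2 of MT_0.25%. One fast-twitch calcium pump entry was at 50.8, 54.7 and 26.8 CPM in PRO and 154, 164 and 141 in MT_10%. The member not called, a trimeric intracellular cation channel, had 0.287, 0.215 and 0.375 CPM in PRO and 0, 0.140 and 0.200 in MT_10%.

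All 8 junction and membrane transcripts tested were called higher, with a median log2 fold change of 3.58 and sums of 3.92 to 6.001 CPM in PRO and 199 to 229 in MT_10%. Musk, comp196700_c0_seq1, the kinase that organises the postsynaptic membrane, was at 0.574, 0.902 and 0.409 CPM in PRO and 21.8, 30.3 and 28.0 in MT_10%, a log2 fold change of 5.43 (adjusted p = 5.59e-12, SE 0.29). The delta subunit of the acetylcholine receptor was at 0.0956, 0.129 and 0.273 CPM and 3.48, 3.26 and 3.62, with a log2 fold change of 4.35 (adjusted p = 1.35e-08, SE 0.39). The most abundant of the list, a transmembrane protein, comp17356_c0_seq1, was at 2.49, 2.62 and 4.30 CPM and 182.03, 186 and 158. The smallest difference of the list was that of acetylcholinesterase, which ends the nerve signal, at 1.85 (adjusted p = 0.00410, SE 0.50). With limma on log2(TPM + 1), 6 of the 8 were called higher. The calls of acetylcholinesterase (adjusted p = 0.0826) and integrin alpha 6 (0.150) were lost. Integrin alpha 6 was also not called on log2(TPM + 0.1) (adjusted p = 0.0841).

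Transcription and RNA-binding regulators were higher in MT_10% as well. All 12 tested of 14 transcripts in their list were called higher, with a median log2 fold change of 2.70. With DESeq2, 11 were called. In the fit of these 2 groups alone, which filtered transcripts anew, 11 were called and the other of the 12 was not tested. The call of vestigial-like 1 was lost, by adjusted p, with DESeq2 (0.0785) and on log2(TPM + 0.1) (0.0704). It was also lost without PRO library 3 (0.0927) or MT_10% library 2 (0.0783). Msx2, comp83314_c0_seq1, a homeobox factor of the limb, was at 51.1, 44.3 and 51.6 CPM in PRO and 1384, 1290.4 and 1255 in MT_10% (log2 fold change 4.74, adjusted p = 1.09e-11, SE 0.27), and at 4692, 3278 and 3481 in MT_0.25%. Tead4, comp37554_c0_seq3, which binds muscle promoters, was at 10.9, 10.5 and 19.6 CPM in PRO and 86.6, 112 and 107 in MT_10% (log2 fold change 2.89, SE 0.24). Tbx15, a T-box factor, was at 1.88, 1.46 and 1.13 and 23.2, 27.7 and 22.6 CPM (log2 fold change 4.04, SE 0.27), and RNA-binding protein 24-A, a splicing regulator of muscle, at 5.19, 6.92 and 3.38 and 36.4, 74.5 and 37.1 (log2 fold change 3.26, SE 0.35). Smaller differences were seen for myocyte enhancer factor 2D (log2 fold change 1.195, SE 0.22), myocardin (log2 fold change 1.18, SE 0.21) and RNA binding motif protein 20, which controls titin splicing in mammals (log2 fold change 0.97, SE 0.24).

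In the list of chaperones 8 of 10 were called higher and 0 lower, with a median log2 fold change of 2.50. In the fit of these 2 groups alone, 6 were called higher and 1 lower, but that fit filtered transcripts anew and did not test every member. The heat shock protein 90 entry comp908912_c0_seq1 lost its call with DESeq2 (adjusted p = 0.0593). That call was also lost without PRO library 2, PRO library 3 or MT_10% library 3 (adjusted p = 0.0934 to 0.189). DnaJ homolog subfamily C member 1, comp1484073_c0_seq1, was at 0.159, 0.816 and 0.443 CPM in PRO and 65.5, 75.5 and 64.2 in MT_10% (log2 fold change 7.24, adjusted p = 2.25e-11, SE 0.42), and at 448, 258 and 248 in MT_0.25%. A small heat shock protein of the 25 kDa type was at 0.733, 0.602 and 1.06 and 49.2, 59.6 and 57.8 CPM (log2 fold change 6.11, SE 0.30). Both entries named UNC45A, a myosin chaperone, were higher, whereas heat shock protein 70kDa was not called, at -0.65 (SE 0.31) with adjusted p = 0.0860. The 70kDa entry was called lower with RLE (adjusted p = 0.0465), DESeq2 (0.0360) and only these 2 groups fitted (0.0349). The metabolic list was mixed. Of 13 tested, 7 were called higher, 1 lower and 5 were not called, with a median log2 fold change of 1.65, or 1.56 without a phosphoglycerate kinase entry with 3 counts or fewer in each group, 2.70 without PRO library 2 and 2.82 in the fit of these 2 groups alone, which did not test every member. Both phosphoglycerate kinase entries, and those of glycogenin-1, glyceraldehyde-3-phosphate dehydrogenase and a second enolase, were not called and had under 1 CPM in every library. Adenylate kinase 1, which interconverts adenine nucleotides, was at 4.62, 8.47 and 5.97 CPM in PRO and 74.0, 69.9 and 64.5 in MT_10% (log2 fold change 3.46, adjusted p = 3.27e-09, SE 0.28). Glutamine synthetase was at 1.94, 1.504 and 2.15 and 8.33, 18.1 and 21.9 CPM (log2 fold change 3.11, SE 0.32), with MT_10% library 1 well under the other two. The one member called lower was an enolase entry, at 3.28, 4.77 and 3.38 CPM in PRO and 1.55, 1.57 and 2.00 in MT_10%, whose log2 fold change was -1.15 (adjusted p = 0.000838, SE 0.26) with TMM and 0.42 on log2(TPM + 0.1).

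The proliferation panel lay between the 2 reference states. Over its 17 transcripts, all of which were tested, the MT_10% mean was a median of 63.6% of the PRO mean, while the MT_0.25% mean was 16.3% and stood below MT_10% for each of the 17. With TMM 8 were called lower than PRO (24.2% of all tested were), 2 higher and 7 were not called, 0 of them differed by more than 2-fold under glmTreat, and the median log2 fold change was -0.65, which turned to 0.67 on log2(TPM + 0.1), with 6 called higher and 0 lower. Set against the median of all transcripts (0.15 and 1.03), 14 of the 17 lay below it on both scales, but 8 of 17 on log2(TPM + 1). The transcripts high in PRO and low in MT_0.25% outside the panel, given above, were at 6.77% of PRO in the same MT_10% libraries. That level is not a like measure, since they were chosen to be at least 50 times lower in MT_0.25%, unlike the panel. It also followed the rule of choice, with 12.3% at 20-fold and 2.18% at 100-fold. The part of remaining mononucleate cells in the panel's level was not tested.

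Mitotic cyclins were among the transcripts called lower with TMM. Cyclin B1, Ccnb1, comp125600_c0_seq1, which drives entry into mitosis, was at 95.9, 127 and 105 CPM in PRO, 58.1, 51.1 and 50.3 in MT_10% and 8.61, 19.6 and 11.9 in MT_0.25%. Its log2 fold change was -1.04 (adjusted p = 0.000914, SE 0.24) with TMM and 0.11 on log2(TPM + 0.1). Cyclin B2, Ccnb2, was at 15.1, 23.0 and 21.2 CPM in PRO and 11.5, 9.45 and 8.22 in MT_10%, a log2 fold change of -1.03 (adjusted p = 0.00623, SE 0.30) with TMM and 0.094 on the TPM scale. Kinetochore and replication genes Ska1, Spc24, Fen1, Rfc3 and cyclin B3 were also called lower, with log2 fold changes of -0.84, -0.65, -0.67, -0.76 and -0.73 with TMM and of 0.30, 0.47, 0.48, 0.82 and 0.37 on the TPM scale. The Rfc3 call was lost without PRO library 2 or MT_10% library 2 (adjusted p = 0.0750 to 0.104), and that of Ccnb3 without PRO library 2 (adjusted p = 0.0560).

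Against the direction of the panel, Ndc80, a kinetochore protein that binds microtubules, and Kif22, a kinesin of chromosome arms, were called higher in MT_10%. Ndc80, comp92693_c0_seq2, was at 23.1, 9.54 and 19.2 CPM in PRO and 32.9, 36.9 and 32.9 in MT_10%, with a log2 fold change of 0.98 (adjusted p = 0.0248, SE 0.35) that lost the call without PRO library 2 or MT_10% library 2 (adjusted p = 0.0660 to 0.126). Kif22, comp144592_c0_seq4, was at 4.91, 2.06 and 2.83 and 6.78, 6.79 and 7.08 CPM, with a log2 fold change of 1.07 (adjusted p = 0.00686, SE 0.31). In both, PRO library 2 was the lowest of all, and the 3 and 3 libraries did not overlap, as in 94.5% of all called transcripts. The 7 not called included the mitotic kinase Cdk1a, at 94.5, 139 and 129 CPM in PRO and 97.2, 86.9 and 79.7 in MT_10% (log2 fold change -0.46, SE 0.29, adjusted p = 0.193), and the anaphase activator Cdc20, at 141, 171 and 111 and 86.7, 84.2 and 84.8 (log2 fold change -0.73, SE 0.32, adjusted p = 0.0619). Cdc20 was called lower with RLE (adjusted p = 0.0337), DESeq2 (0.0270), only these 2 groups fitted (0.00815) and the replicate number as a block (0.0332). It was also called lower without PRO library 3 (0.0459). The replication licensing factor Mcm7 was at 252, 118 and 136 CPM in PRO and 118, 110.1 and 130.2 in MT_10% (log2 fold change -0.50, SE 0.27, adjusted p = 0.124), with PRO library 1 far above the rest. Without PRO library 2 Mcm7 was called lower, at -0.70 (adjusted p = 0.0438). Primase subunit Prim2, origin factor Orc6, kinase Aurkba and kinesin Kif18b were at -0.19, -0.18, -0.30 and 0.67, with 95% intervals of -0.70 to 0.32, -0.73 to 0.37, -0.88 to 0.28 and -0.16 to 1.498. Kif18b was called higher without PRO library 1, at 1.17 (adjusted p = 0.0321), and on log2(TPM + 0.1), at 1.91 (adjusted p = 0.00593).

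**Figure D3:**
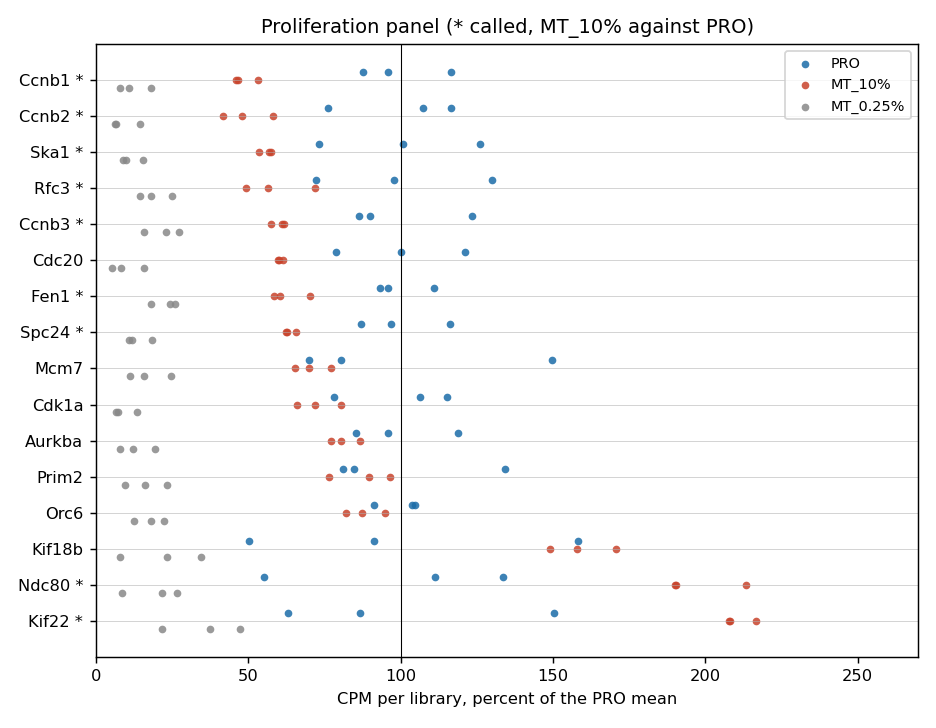
CPM of 16 of the 17 proliferation panel transcripts in each library as percent of the PRO mean (TMM scaling), 1 point per library of PRO, MT_10% and MT_0.25%, with an asterisk where MT_10% against PRO was called. MT_10% points lie right of all MT_0.25% points in each row, and left of all PRO points for the 7 rows called lower with TMM, while on log2(TPM + 0.1) the panel's median log2 fold change turned from -0.65 to 0.67.

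The senescence panel had no common direction. Of 15 transcripts 14 were tested, and 4 were called higher, 3 lower and 7 were not called, with a median log2 fold change of 0.27, or 0.54 without the integrin Itgb4, which was at 0 in all 6 libraries, 0.15 without PRO library 2 and -0.32 in the fit of these 2 groups alone, which did not test every member. These counts were near the 26.8% higher and 24.2% lower of all tested transcripts. Lig4, a ligase of DNA double-strand break repair, was at 0.319, 0.602 and 0.409 CPM in PRO and 2.19, 2.68 and 2.10 in MT_10% (log2 fold change 2.42, adjusted p = 6.97e-06, SE 0.35). The cytokines Il7 (log2 fold change 2.17, SE 0.42), Il6 (log2 fold change 1.60, SE 0.41) and Il8 (log2 fold change 1.11, SE 0.22) were called higher as well, from levels of at most 1.94 CPM in PRO. Hmgb1, comp1509_c0_seq1, a chromatin protein that senescent mammalian cells release, was at 199.9, 247 and 227 CPM in PRO and 75.9, 91.7 and 95.8 in MT_10%, and fell by 1.35 on the log2 scale (adjusted p = 2.74e-06, SE 0.18) with TMM, a call that was lost on log2(TPM + 0.1), at -0.23 (adjusted p = 0.234). Hmgb2 (log2 fold change -0.32, SE 0.22) and lamin B1, Lmnb1 (log2 fold change 0.54, SE 0.25), were not called, though Lmnb1 was without PRO library 3 (adjusted p = 0.0215), without MT_10% library 1 (0.0480) and on log2(TPM + 0.1), at 1.71. Il18 was at 19.4, 16.8 and 14.8 CPM in PRO and 11.3, 6.76 and 9.30 in MT_10%, with a log2 fold change of -0.91 (adjusted p = 0.000704, SE 0.20) with TMM and 0.17 on log2(TPM + 0.1), and the colony stimulating factor Csf1 was not called, at -1.17 (SE 0.52) with adjusted p = 0.0641. Csf1 was called lower with RLE (adjusted p = 0.0474), with only these 2 groups fitted (0.00277) and without PRO library 3 (0.0391).

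Signals of the FGF family act through tyrosine kinase receptors upstream of the ERK cascade. Of the 8 FGF ligands tested of 10, 3 were called higher in MT_10%, 0 lower and 5 were not called (26.8% of all tested were called higher), with a median log2 fold change of 0.76, and on log2(TPM + 0.1) 7 of the 8 were called higher. Fgf7 was at 1.53, 1.89 and 2.08 CPM in PRO and 3.31, 3.51 and 3.16 in MT_10%, a log2 fold change of 0.86 (adjusted p = 0.000708, SE 0.19). Fgf12 (log2 fold change 0.76, SE 0.20) and Fgf13 (log2 fold change 0.71, SE 0.23), members of the family that stay inside the cell in mammals, were also called, but the Fgf13 call was lost without PRO library 2, PRO library 3 or MT_10% library 3 (adjusted p = 0.0532 to 0.0653). The limb outgrowth ligands Fgf8 (log2 fold change -0.29, SE 0.26, adjusted p = 0.369) and Fgf10 (log2 fold change 0.64, SE 0.26, adjusted p = 0.0501) were not called, nor was Fgf19 (log2 fold change 0.75, SE 0.33), and Fgf8 was at 0.70 on log2(TPM + 0.1). Fgf10 was called with the replicate number as a block (adjusted p = 0.0387) and without PRO library 3 (0.0380), Fgf19 with only these 2 groups fitted (0.0192), and both on log2(TPM + 0.1), at 1.59 and 1.87. Of 5 receptors, 2 were called higher and 1 lower. Fgfr2.2, comp70016_c0_seq3, was at 5.96, 6.27 and 6.24 CPM in PRO and 36.5, 49.9 and 50.7 in MT_10% (log2 fold change 2.89, adjusted p = 1.01e-09, SE 0.22), and Fgfr2.1 at 2.07, 2.23 and 1.81 and 6.61, 6.42 and 7.32 (log2 fold change 1.74, SE 0.20). Fgfr3.1, comp9242_c2_seq19, was called lower with TMM, at 75.0, 101 and 121 CPM in PRO and 46.4, 45.6 and 42.8 in MT_10% (log2 fold change -1.14, adjusted p = 0.000397, SE 0.24), but not on log2(TPM + 0.1), at -0.13 (adjusted p = 0.673), and Fgfr1 was not called (log2 fold change 0.30, SE 0.41). With limma on log2(TPM + 1), Fgfr1 was called higher, at 1.17 (adjusted p = 0.0422). Mean levels of Fgfr2.2, Fgfr2.1 and Fgfr3.1 were 38.99, 7.06 and 38.1 CPM in MT_0.25%, beside 45.7, 6.79 and 44.9 in MT_10%.

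In the ERK panel 3 of 10 were called higher, 1 lower and 6 were not called, again near the 26.8% called higher of all tested. The TGF-beta activated kinase Map3k7 was at 30.2, 36.6 and 29.8 CPM in PRO and 86.2, 111 and 75.1 in MT_10% (log2 fold change 1.496, adjusted p = 1.76e-05, SE 0.23), and Mapk4, at 1.90 (SE 0.42), was called as well. Hras, at 4.46, 7.18 and 5.39 CPM in PRO and 4.29, 3.41 and 3.48 in MT_10%, had a log2 fold change of -0.61 (adjusted p = 0.0364, SE 0.24), which was 0.50 on log2(TPM + 0.1) and lost the call without PRO library 2, PRO library 3, MT_10% library 2 or MT_10% library 3 (adjusted p = 0.0525 to 0.192). The 3 Map3k3 entries, the kinase Mapk8, Mapk8ipl and the factor Jund were not called, but Map3k3.2, at -0.68 (SE 0.29) with TMM (adjusted p = 0.0552), was called lower with RLE (adjusted p = 0.0284) and DESeq2 (0.0230).

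Wnt ligands, secreted factors of patterning and regeneration, were called in both directions. Of 17 rows, 12 were tested, and 5 were called higher, 2 lower and 5 were not called. Wnt11b was at 0.605, 0.859 and 0.443 CPM in PRO and 3.56, 3.78 and 3.101 in MT_10% (log2 fold change 2.47, adjusted p = 0.000566, SE 0.53), and Wnt5b at 3.22, 4.86 and 1.60 and 8.07, 8.13 and 6.36 (log2 fold change 1.23, adjusted p = 0.000555, SE 0.26). Wnt7bb (log2 fold change 2.36, SE 0.58), Wnt10b (log2 fold change 1.29, SE 0.38) and Wnt8b (log2 fold change 1.06, SE 0.42) were higher at under 2 CPM, and the Wnt8b call was lost when any 1 of the 5 libraries other than MT_10% library 1 was left out (adjusted p = 0.0682 to 0.184), and also, by adjusted p, with RLE (0.0648), DESeq2 (0.0761), only these 2 groups fitted (0.0661) and the replicate number as a block (0.0518). Wnt1 was lower, at 4.17, 4.04 and 6.55 CPM in PRO and 0, 0.971 and 1.06 in MT_10% (log2 fold change -2.72, adjusted p = 0.00432, SE 0.74). Wnt4, at -0.97 (adjusted p = 0.0345, SE 0.37) with TMM and 0.11 on log2(TPM + 0.1), lost its call without PRO library 1, PRO library 2, MT_10% library 1, MT_10% library 2 or MT_10% library 3 (adjusted p = 0.0514 to 0.117). Wnt7b was among the most even transcripts, at 6.72, 6.92 and 7.09 CPM in PRO and 6.61, 6.36 and 7.32 in MT_10%, with a 95% interval of -0.37 to 0.31 with TMM, but its value on log2(TPM + 0.1) was 0.79. Downstream, the Wnt antagonist Dkk1, comp69154_c0_seq1, was at 60.2, 78.4 and 42.2 CPM in PRO, 15.97, 12.8 and 17.4 in MT_10% and 1.15, 2.65 and 2.28 in MT_0.25%, a log2 fold change over PRO of -1.97 (adjusted p = 4.53e-06, SE 0.27) with TMM and of -0.79 (adjusted p = 0.0978), no longer called, on log2(TPM + 0.1). The 2 beta-catenin entries Ctnnb1.s.2 (log2 fold change 1.45, SE 0.19) and Ctnnb1.s.1 (log2 fold change 0.82, SE 0.24) were higher, and the feedback target Axin2 was not called (log2 fold change 0.33, SE 0.27, adjusted p = 0.316).

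BMP signalling is set by secreted ligands and by the antagonists that bind them outside the cell. Bmp7, comp177537_c1_seq2, by far the most abundant ligand, was at 3977, 4944 and 2839.7 CPM in PRO, 1069, 954 and 1076 in MT_10% and 366, 497 and 536 in MT_0.25%. It was 3.80-fold lower in MT_10% than in PRO, a log2 fold change of -1.92 (adjusted p = 3.76e-07, SE 0.22). With TMM 1 of the other 4 ligands was called, Bmp5, at 1.35 (adjusted p = 0.0414, SE 0.54), at 0.0319, 0.0859 and 0.170 CPM in PRO and 0.215, 0.255 and 0.260 in MT_10%, and that call was lost without PRO library 1, PRO library 2, MT_10% library 2 or MT_10% library 3 (adjusted p = 0.0848 to 0.200), and also, by adjusted p, with RLE (0.0636), DESeq2 (0.102), no filter (0.0503), only these 2 groups fitted (0.0630) and the replicate number as a block (0.0563). Bmp2.2, at -0.48 (SE 0.21) and not called with TMM (adjusted p = 0.0672), was called lower with RLE (adjusted p = 0.0289), with DESeq2 (0.0230) and without PRO library 1 (0.0258), but higher on log2(TPM + 0.1), at 0.69. The study's panel of BMP antagonists and receptors has 10 rows, of which 9 were tested. Of these, 2 were called higher, 1 lower and 6 were not called. The antagonist noggin, Nog2, was at 5.70, 4.98 and 3.00 CPM in PRO and 10.6, 13.8 and 13.9 in MT_10% (log2 fold change 1.49, adjusted p = 6.60e-05, SE 0.26). Grem1, at 23.8, 14.9 and 10.6 CPM in PRO and 9.83, 7.13 and 15.5 in MT_10%, was not called, and its libraries overlapped. Cd247.1, the other row called higher, carries the symbol of a T-cell receptor chain rather than of a BMP antagonist or receptor. It was at 0.574, 0.129 and 0.0341 CPM in PRO and 2.45, 1.72 and 2.00 in MT_10% (log2 fold change 2.97, adjusted p = 0.00590, SE 0.85).

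The panel of proteases and coagulation factors was the one furthest below PRO. Of 10 transcripts 6 were called lower, 2 higher and 2 were not called, and the median log2 fold change was -1.36. On log2(TPM + 0.1) the median was -0.20, and 3 were called lower. Timp1.1, comp6073_c0_seq1, an inhibitor of matrix metalloproteinases and among the 5 most abundant transcripts lower in MT_10%, was at 26102, 23629 and 16624 CPM in PRO, 2914, 2019 and 3333 in MT_10% and 103, 305 and 221 in MT_0.25%. It was 8.03-fold lower than in PRO, a log2 fold change of -3.005 (adjusted p = 3.69e-07, SE 0.34). A second entry, Timp1.2, was called lower with TMM but not on log2(TPM + 0.1), at -0.33 (adjusted p = 0.336). The stromelysin-like proteases went opposite ways. Mmp3/10a, comp19400_c0_seq1, was at 18.9, 24.6 and 14.1 CPM in PRO and 4.90, 3.40 and 4.28 in MT_10% (log2 fold change -2.21, adjusted p = 1.66e-06, SE 0.28), while Mmp3/10b, comp94697_c0_seq1, was at 1.43, 1.03 and 1.47 and 17.6, 19.8 and 14.1 (log2 fold change 3.70, adjusted p = 1.36e-10, SE 0.24). The gelatinase Mmp9th was called lower with TMM, at 753, 724 and 381 CPM in PRO and 243, 215 and 302 in MT_10% (log2 fold change -1.29, adjusted p = 0.00217, SE 0.32), with PRO library 3 the lowest of its group, and on log2(TPM + 0.1) its call was lost, at -0.080 (adjusted p = 0.869). Factor XI, F11, was at 19.5, 22.2 and 15.8 and 3.99, 4.66 and 6.54 CPM (log2 fold change -1.91, adjusted p = 6.07e-05, SE 0.33), but not called on log2(TPM + 0.1), at -0.80 (adjusted p = 0.125), and the thrombin receptor F2RL3 at 40.7, 57.6 and 46.0 and 19.7, 13.2 and 14.2 (log2 fold change -1.62, adjusted p = 5.65e-07, SE 0.19). Factor X, F10, was higher, at 0.64 (adjusted p = 0.0142, SE 0.21), a call lost without PRO library 1 or MT_10% library 1 (adjusted p = 0.0594 to 0.0640).

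**Figure D4:**
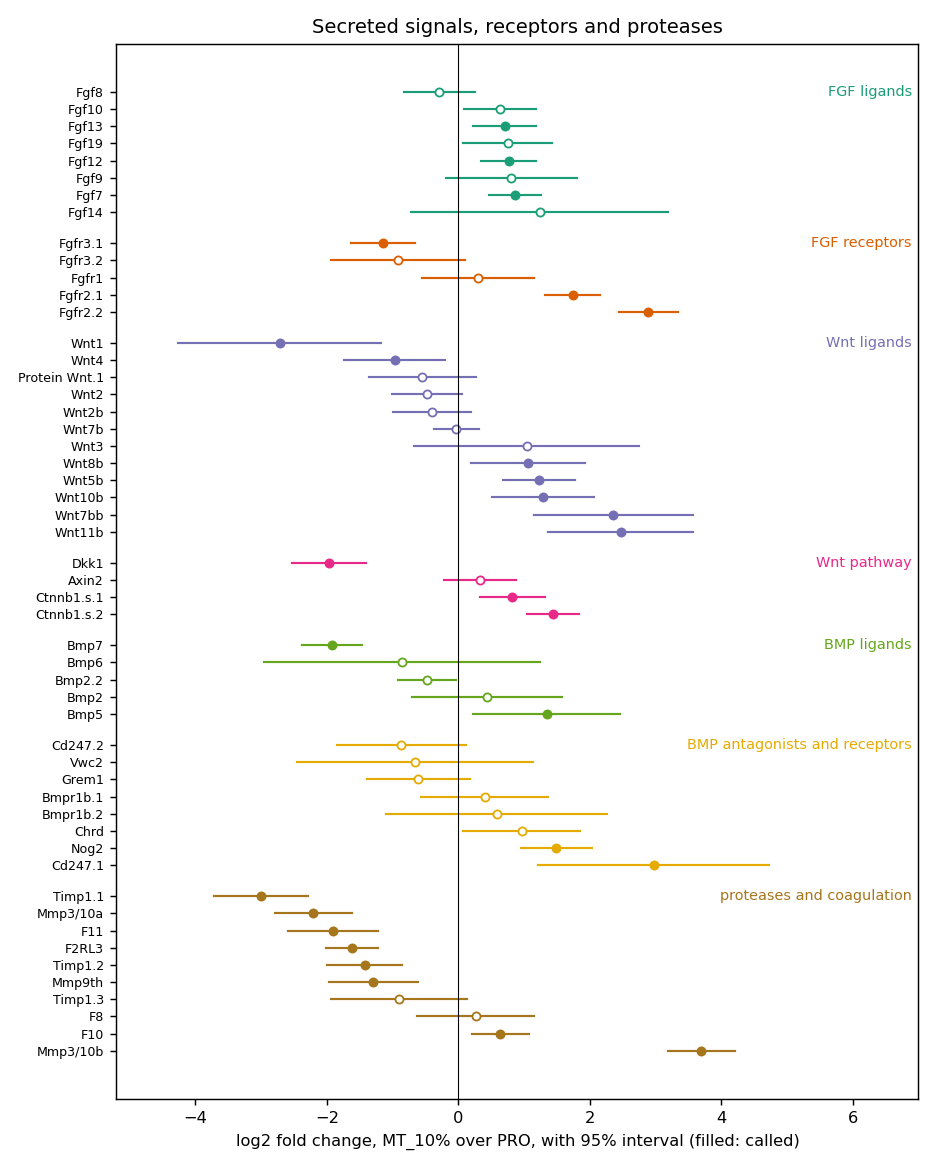
Log2 fold change of MT_10% over PRO (TMM scaling) with its 95% interval for tested rows of the FGF, Wnt, BMP and protease panels, coloured by panel, with filled points where the difference was called. Fgfr2.2 (2.89) and Mmp3/10b (3.70) stand far to the right and Timp1.1 (-3.005) far to the left, and on log2(TPM + 0.1) Wnt4 turned from -0.97 to 0.11, the only call shown that changed sign.

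Over all transcripts, the largest rises were those of muscle and of unnamed transcripts, and the largest falls had no name. Among the 10 largest rises with at least 50 mean counts and no overlap, 5 were members of the sarcomere list or the differentiation panel and 5 had 0 counts in all PRO libraries. The highest of the latter, comp9624_c0_seq1, was at 90.4, 44.2 and 57.5 CPM in MT_10%, at least 1792-fold higher than the PRO floor of 3 counts over the group, and comp17956_c0_seq1 was at least 183-fold higher. Another of these, comp5289371_c0_seq1, was at 7.47, 1.47 and 0.660 CPM, with most of its level in MT_10% library 1. Outside the lists, a transcript named for the NMDA receptor subunit NMDA1, comp15294_c2_seq8, was at 1.15, 1.12 and 1.60 CPM in PRO and 361, 345 and 345 in MT_10% (log2 fold change 8.08, adjusted p = 1.77e-14, SE 0.29), and growth arrest-specific 2 like 1, a linker of actin and microtubules, at 1.24, 0.473 and 1.06 and 213, 236 and 213 (log2 fold change 7.86, adjusted p = 3.41e-13, SE 0.35). By level, an uncharacterised protein, comp2073_c0_seq1, ranked with tropomyosin among the 5 most abundant rises, at 1104, 787 and 791 CPM in PRO and 17954, 12767 and 11309 in MT_10%.

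The largest fall was that of comp38901_c0_seq1, at 3681, 4105 and 2768 CPM in PRO, 69.2, 49.0 and 75.8 in MT_10% and 6.84, 22.9 and 19.5 in MT_0.25%. It was 54.4-fold lower in MT_10%, a log2 fold change of -5.77 (adjusted p = 4.05e-10, SE 0.41). Next came comp1752313_c0_seq1 (log2 fold change -5.73, SE 0.50), comp2505581_c0_seq1 (log2 fold change -5.58, SE 0.32) and comp559145_c0_seq1 (log2 fold change -5.54, SE 0.31), and the 10 largest falls reached from -5.77 to -4.19. Beside Timp1.1, the 5 most abundant transcripts called lower with a fitted difference of at least 2-fold were comp107303_c0_seq1, comp5120628_c0_seq1, comp134_c0_seq1 and comp114715_c0_seq1, the first at 22823, 29551 and 30176 CPM in PRO and 6565, 5848 and 5613 in MT_10%, and the last with a log2 fold change of -1.09 with TMM but 0.11 on log2(TPM + 0.1). The named transcript with the largest fall was FAM166B, at 3.38, 5.37 and 2.86 CPM in PRO and 0.344, 0.485 and 0.520 in MT_10% (log2 fold change -3.04, adjusted p = 9.33e-08, SE 0.31). A tyrosinase fragment, of the enzyme of melanin synthesis, fell by 1.75 on the log2 scale (adjusted p = 0.000507) with TMM, a call lost on log2(TPM + 0.1), at -0.61 (adjusted p = 0.260). At the other extreme, the narrowest intervals within 2-fold among named transcripts were those of Rab-37 (-0.25 to 0.41), a vesicle GTPase, Wnt7b, procollagen-proline dioxygenase (-0.16 to 0.56), the phosphatase Ppm1d (0.012 to 0.74) and Jund (-0.65 to 0.088), all with TMM. On log2(TPM + 0.1) they were all called higher, at 1.08, 0.79, 1.26, 1.46 and 0.71 in that order.

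**Figure D5:**
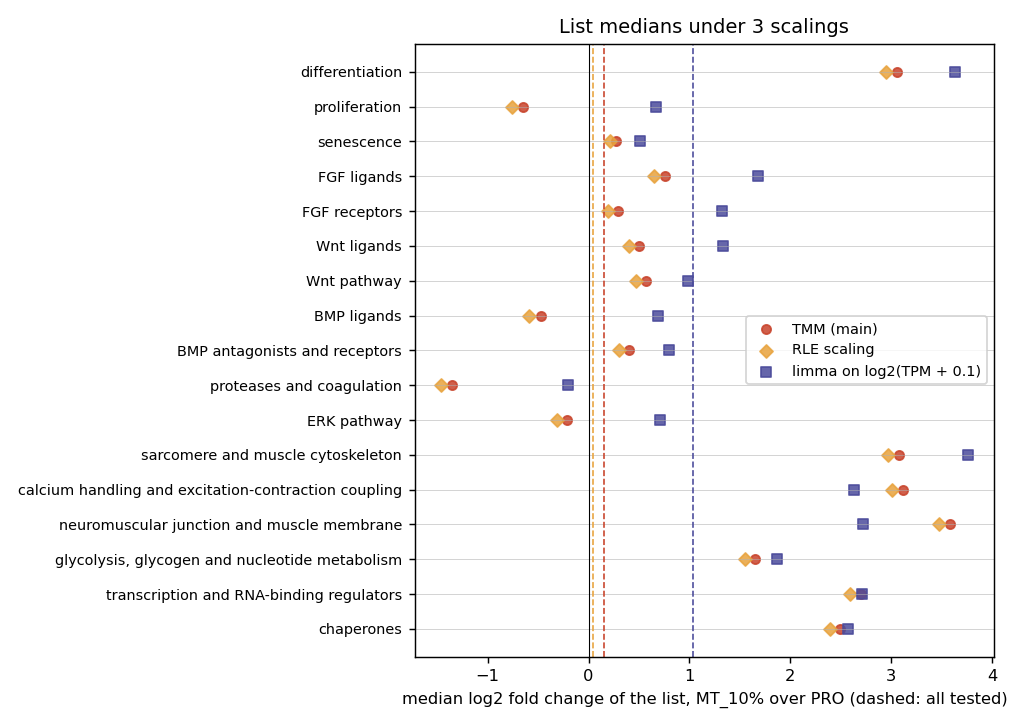
Median log2 fold change of MT_10% over PRO for each of the 17 lists (rows) under TMM, RLE and limma on log2(TPM + 0.1), with a dashed line at the median of all tested transcripts on the same scale (0.15, 0.05 and 1.03). The muscle lists lie to the right of all 3 lines, whereas the proliferation, BMP ligand and ERK panels lie below 0 with TMM and RLE and above 0, but left of the TPM line, in TPM.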

How the data were processed

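RNA of newt A1 cells was sequenced in 18 libraries of 6 groups, of which 3 PRO and 3 MT_10% libraries were compared. Per the labels and the study's methods, the authors trimmed reads with Trim Galore, and Sailfish then assigned the reads of each library to an assembled transcriptome of Notophthalmus viridescens. No source used here names a version. The deposited tables hold, per entry, estimated counts (not normalized), TPM scaled by the authors for length within a library, and the entry's length and effective length.

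Estimated counts were rounded to whole numbers. Groups and replicate numbers came from the sample titles. All 18 libraries, with 1 mean per group, were fitted in edgeR 4.0.16 (R 4.3.3) with TMM scaling and filterByExpr, which kept 23107 of 27395 entries, and MT_10% was compared with PRO by the quasi-likelihood test, with Benjamini-Hochberg adjustment over all of them. Each SE was derived from the fold change and its F statistic, and intervals are at 95%. The study itself used DESeq2, which is an alternative here (version 1.42.0). Other alternatives were RLE scaling, no filter, a fit to the 6 libraries alone, the replicate number as a block, limma 3.58.1 on log-scaled TPM with a pseudocount of 1 or 0.1, and fits without each of the 6 libraries. The fit to the 6 libraries alone filtered transcripts on those libraries, so that some list members were not tested in it. The scripts were tested on simulated data.

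Each row of the supplementary tables was matched to the 1 entry with the same values, scaled by median-ratio size factors, since the printed identifiers were not those of the matched entries. All 124 panel rows matched, as did 1981 of 1993 rows higher in senescent cells and 1794 of 1985 rows higher in MT_0.25%. Only names were used. The members, lists and rules were chosen with earlier results of these data known. Transcripts named in the text were members of the lists, the 10 largest rises and falls with at least 50 mean counts and no overlap between groups, the 5 most abundant called in each direction with a fitted difference of at least 2-fold, the 15 largest with a name, and the 5 named ones with the narrowest interval within 2-fold. Others are said to have been chosen after their values were seen. Total counts ranged from 20609794 to 62991760, and the 95% intervals of fold changes carry the spread between libraries, whereas ratio intervals and floors of low counts cover counting error only. No 2 libraries were identical. A few members of the panels are counted in the totals but are not reported here by name.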

Additional observations from a re-analysis of the deposited data

How the results depend on the processing

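The 11784 calls became 11716 with RLE, 11855 with DESeq2, 11621 without a filter, 11211 with 2 groups only, 13204 and 14775 with limma on TPM (pseudocounts 1 and 0.1), and 10168 to 11311 with 1 library left out. The share of called transcripts higher in MT_10%, 52.5%, was 46.6% with RLE, 46.6% with DESeq2, 92.9% and 93.7% on the TPM scales, and 50.4% to 53.0% with 1 library left out. The 3285 transcripts past 2-fold became 2518 to 3184 with 1 library left out, and the 133 list members called 125 to 135 over all alternatives. The level of PRO-high transcripts in MT_10%, 6.77%, was 12.3% with a 20-fold rule (97 transcripts), 2.18% with a 100-fold rule (7 transcripts) and 5.76% to 8.75% with 1 MT_10% library left out. The mean correlation between groups was 0.920, 0.922 on log2(CPM + 0.1) and 0.921 by Spearman's measure.

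Of 239 transcripts recomputed, 3 lost and 5 gained a call with 2 groups only, 204 stayed as they were and the rest were not tested in that fit. With RLE, 3 lost and 5 gained a call, 6 lost and 4 gained one with DESeq2, and 0 of the 239 changed direction except on the TPM scales. There, log2 fold changes called lower with TMM were above 0, on log2(TPM + 0.1) and log2(TPM + 1) in that order, for comp114715_c0_seq1 at 0.11 and 0.11, Ccnb1 at 0.11 and 0.11, Ska1 at 0.30 and 0.29, Spc24 at 0.47 and 0.46, Wnt4 at 0.11 and 0.040, an endogenous retroviral Env transcript at 0.086 and 0.069, Fen1 at 0.48 and 0.46, Ccnb2 at 0.094 and 0.087, Il18 at 0.17 and 0.16, Ccnb3 at 0.37 and 0.36, Rfc3 at 0.82 and 0.76, Hras at 0.50 and 0.42, the enolase entry at 0.42 and 0.30 and a Down syndrome cell adhesion molecule transcript at 1.49 and 0.95. Transcripts below 0 and not called with TMM were called higher in TPM, with Hmgb2 at 0.83 and 0.73, Prim2 at 0.96 and 0.90, Fgf8 at 0.70 and 0.61, Orc6 at 0.90 and 0.75, Wnt2b at 1.47 and 1.35, Wnt7b at 0.79 and 0.66, Bmp2.2 at 0.69 and 0.66 and Jund at 0.71 and 0.68, and on log2(TPM + 1) alone Mapk8 at 0.66. TPM carries no factor for composition, and its median over all transcripts was 1.03 on log2(TPM + 0.1) and 0.54 on log2(TPM + 1).

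The replicate number as a block gave 11610 calls. On log2(TPM + 1), the medians of the differentiation, calcium, junction, chaperone and metabolic lists were 1.90, 1.91, 1.29, 0.93 and 0.38, beside 0.54 over all transcripts. The metabolic median thus lay below that of all transcripts on this scale, and the junction list had 4 members above it and 4 below. Deviations of same-numbered libraries had r = -0.176 to -0.0120 over transcripts, and those of differently numbered ones -0.127 to 0.175. With 3 libraries per group and ranges this close, these values cannot decide whether the numbers pair the samples. Depth limits the transcripts under about 1 CPM, and low-count members that failed the filter were not tested. The floor of 3 counts over the PRO group stood at 0.0357 CPM.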

Other observations

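Named transcripts outside the lists, chosen after their values were seen, also separated the 2 groups. They all come from the study's lists of transcripts higher in senescent cells or MT_0.25% than in the same PRO libraries, which bears on their direction. Tenascin C, comp26997_c1_seq1, a matrix glycoprotein of regenerating tissue, was at 69.2, 49.8 and 32.7 CPM in PRO and 369, 419.8 and 334 in MT_10%, a log2 fold change of 2.89 (adjusted p = 8.72e-09, SE 0.25), as fitted in edgeR. A laminin beta 1 related transcript, of the basement membrane, was at 9.97, 7.82 and 19.9 and 32.98, 50.3 and 47.5 CPM (log2 fold change 1.79, adjusted p = 2.42e-05, SE 0.29). Interferon gamma receptor 1 was at 21.8, 18.1 and 16.7 CPM in PRO and 242, 301 and 231 in MT_10% (log2 fold change 3.77, adjusted p = 4.14e-12, SE 0.20). Notch signalling acts between neighbouring cells. The transcript named Notch ligand was at 1.82, 1.89 and 1.02 and 14.3, 25.3 and 15.1 CPM (log2 fold change 3.54, adjusted p = 7.28e-09, SE 0.30), and Delta-like 1 at 0.0956, 0.0859 and 0.0341 and 1.07, 1.34 and 1.04 (log2 fold change 3.97, adjusted p = 2.16e-07, SE 0.44). Kinesin 26A was at 4.17, 3.996 and 4.94 CPM in PRO and 63.0, 80.3 and 49.3 in MT_10%, and castor zinc finger 1, a transcription factor, at 1.12, 1.38 and 1.60 and 34.0, 39.8 and 41.8. The 3 and 3 libraries did not overlap for any of these 7, as for 94.5% of all called transcripts, and the 7 were chosen with their values known.

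Few transcripts set a single library apart. Among 13328 transcripts with at least 50 mean counts in PRO, 26 were more than 4-fold below the other two libraries in PRO library 2, the highest such number of the 6 libraries. In MT_10% library 1, which had the fewest counts, 15 of 16103 were more than 4-fold above and 12 more than 4-fold below the other two. The unnamed comp151017_c0_seq1, among the 5 most abundant rises, was at 2541, 11104 and 9342 CPM in MT_10% and 928, 665 and 672 in PRO, and comp4486285_c0_seq1 was at 6.66, 0.715 and 1.54 in MT_10% against 6.37, 7.05 and 5.42 in PRO.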
